A study of Mus musculus with 50 samples.

Results

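Cell cycle and DNA replication genes were examined in maternal and fetal mouse liver after gestational exposure to perfluorooctanoic acid (PFOA) or to GenX (hexafluoropropylene oxide dimer acid, a compound made to replace PFOA). The genes were taken by symbol from a list of 42, and no expression value was used to match them to the platform's gene annotation. Of the 42, 41 were measured, among 30738 genes tested; Ccnb1 (cyclin B1) was not analysed here. The 41 comprised 4 regulators of the step from G1 into S phase, 15 genes of DNA replication and nucleotide supply, 8 regulators of the step from G2 into mitosis, 7 spindle checkpoint and kinetochore genes, and 7 genes of mitotic motors, chromosome structure and cytokinesis. The last 3 classes, 22 genes, are called the mitosis genes below. The probes of Ccnd1, Mcm7 and Foxm1 were also annotated to another transcript (Mir3962 for Ccnd1, Mir93 and Mir25 for Mcm7, 4933413G19Rik for Foxm1), so their signals cannot be assigned to 1 gene.

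The study measured liver RNA on 50 Affymetrix arrays, 25 maternal and 25 fetal, all from CD-1 mice, an outbred stock, at gestational day 17.5. Pregnant mice were gavaged daily from embryonic day 1.5 with vehicle, 1 or 5 mg/kg/day of PFOA (PFOA1, PFOA5), or 2 or 10 mg/kg/day of GenX (GenX2, GenX10). Maternal tissue came from the left lateral lobe, and each fetal liver came from a fetus described as female, drawn at random where a litter had several. Each group had 5 arrays, except fetal PFOA5 with 6 and fetal GenX10 with 4. Maternal and fetal livers were called matching in the labels, but no pairs were named, and the arrays were treated as independent. No allele or transgene was involved, and the doses of the compounds differ, so PFOA and GenX values stand side by side and were not compared.

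A dividing cell passes from G1 into S phase when cyclin D and cyclin E kinases release E2F transcription factors, copies its DNA with the MCM helicase and the replication machinery, and then separates its chromosomes on the spindle under cyclin A and cyclin B kinases, polo-like kinase and Aurora kinases. The genes of the S phase group are mostly transcribed under E2F, and those of mitosis later in the cycle under the MuvB complex with B-Myb and FOXM1. Adult hepatocytes rarely divide, although the maternal liver grows in pregnancy, whereas the late fetal liver holds many dividing erythroid precursors and hepatoblasts.

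Promoter sequence was taken from RefSeq (GRCm38.p6), which gave an entry for 33 of the 41 measured genes. The 250 bases before the start site were searched on both strands for the CHR element (TTTGAA or TTTAAA), which MuvB complexes bind, for the CCAAT box (CCAAT), and for 4 E2F-type sites (TTTCCCGC, TTTGGCGC, TTTCGCGC and TTTGCCGC). The CHR letters were in 10 of 18 mitosis promoters (55.6%), in 2 of 13 S phase promoters (15.4%) and in 25.5% of all 27025 promoters. The CCAAT letters were in 15 of 18 mitosis promoters (83.3%) and 10 of 13 S phase promoters (76.9%), against 34.5% of all. An E2F-type site was in 1 of 18 mitosis promoters (5.56%, Cdk1), in 5 of 13 S phase promoters (38.5%: Cdc6, Mcm5, Mcm6, Mcm7 and Pola1) and in 1.91% of all. A match is a string of letters and not a measured site. The 150 bases before the start of 3 mitosis genes whose maternal signals fell and of 2 helicase genes show these layouts, each written 5′ to 3′ on the gene's strand with matches in capitals.
Plk1 (chr7:122159285-122159434, + strand): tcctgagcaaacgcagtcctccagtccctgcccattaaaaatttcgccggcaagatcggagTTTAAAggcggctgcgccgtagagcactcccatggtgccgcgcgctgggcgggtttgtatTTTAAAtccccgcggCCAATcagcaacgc
Cdc20 (chr4:118437344-118437493, - strand): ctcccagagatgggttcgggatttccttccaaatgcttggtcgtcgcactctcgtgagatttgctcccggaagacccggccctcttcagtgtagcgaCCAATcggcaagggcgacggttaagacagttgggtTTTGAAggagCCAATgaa
Kif11 (chr19:37376232-37376381, + strand): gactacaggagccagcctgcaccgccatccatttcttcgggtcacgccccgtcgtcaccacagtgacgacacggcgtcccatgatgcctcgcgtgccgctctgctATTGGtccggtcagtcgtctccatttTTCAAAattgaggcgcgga
Mcm2 (chr6:88898781-88898930, - strand): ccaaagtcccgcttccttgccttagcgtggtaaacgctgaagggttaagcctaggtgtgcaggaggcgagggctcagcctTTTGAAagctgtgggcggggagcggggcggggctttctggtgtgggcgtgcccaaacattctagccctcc
Mcm6 (chr1:128359706-128359855, - strand): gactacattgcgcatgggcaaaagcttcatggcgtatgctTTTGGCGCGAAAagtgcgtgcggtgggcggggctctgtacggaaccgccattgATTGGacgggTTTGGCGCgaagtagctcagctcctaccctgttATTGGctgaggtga
In Plk1, whose kinase drives entry into mitosis, CHR letters began 89 and 29 bases and CCAAT letters 14 bases before the start. In Cdc20, an activator of the anaphase-promoting complex, the CHR letters began 18 bases and CCAAT letters 53 and 8 bases before it. In Kif11, the kinesin that pushes spindle poles apart, both were read on the other strand, 19 bases (TTCAAA) and 45 bases (ATTGG) before the start. Mcm2 had CHR letters 70 bases before its start and no E2F-type letters. Its CCAAT letters, on the other strand at 175 bases, lay beyond the printed stretch. In Mcm6, E2F-type letters began 110, 106 and 47 bases before the start, the first 2 of them overlapping on opposite strands, with CCAAT letters on the other strand at 57 and 14 bases.

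Signals are log2 values, and a probe was called not well above background in a group when no array of that group had it above the negative control features' 95th percentile. This percentile was 7.37 to 7.68 on the maternal arrays and 7.66 to 8.18 on the fetal arrays, with 5462 to 7489 and 4394 to 6226 genes above it. In the maternal groups, 38 of the 41 genes were not well above background in controls, 38 in PFOA1, 40 in PFOA5, 40 in GenX2 and 39 in GenX10, including all 15 S phase genes in each. In the fetal groups these numbers were 11, 11, 11, 5 and 9. Differences between dim signals are given as log2 differences without a fold, and such differences are compressed. The hepatocyte markers, 8 measured, were all above background in the maternal groups, and in fetal control livers 6 of the 8 were, together with all 4 fetal hepatocyte markers. The source names of fetal PFOA5 replicate 6 and fetal GenX2 replicate 5 name other exposures than their titles (GenX2 and GenX10), and the titles were followed. Replicate 3 of the fetal controls and replicate 2 of fetal GenX2 went against the label female, with the X inactivation transcript Xist at 5.39 and 4.50 and the Y-linked Eif2s3y at 6.49 and 6.10, where the other fetal arrays had 10.52 to 11.48 and 3.63 to 3.80. Every count of called genes in the 4 fetal comparisons with controls was the same without either pair of arrays.

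The first comparison set fetal against maternal control livers. Of the 41 genes, 40 were higher in fetal liver and none lower, where 20.0% of all genes tested were called higher and 42.1% lower. A gene was called at an adjusted p under 0.05, from limma's moderated test with Benjamini-Hochberg adjustment over all 30738 genes. The same 40 genes had every fetal array above every maternal array, where 15.5% of all genes did. The median difference was 2.34 for the S phase genes and 1.85 for the mitosis genes, and -0.13 over all genes.

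Mki67, which encodes the Ki-67 protein of mitotic chromosome surfaces, had the largest difference of the 41. Its signals were 11.49, 11.97, 11.92, 11.60 and 11.36 in the fetal controls and 6.94, 7.60, 7.79, 7.55 and 6.45 in the maternal controls. The 2 sets were far apart, and the difference was 4.41 (SE 0.29, adjusted p 2.4e-17 in limma), with 2 of the 5 maternal arrays above background and so no fold given. Plk1 lay at 9.38, 9.53, 9.36, 9.33 and 9.21 against 7.57, 7.88, 7.97, 8.12 and 7.13, again without overlap, a difference of 1.62 (SE 0.17, adjusted p 9.2e-11) with 3 of the 5 maternal arrays above background. Where a gene was not well above background in maternal liver, the fold is a lower bound, taken between the fetal mean and the mean over maternal arrays of the higher of the gene's own signal and that array's background percentile. By this measure Mcm6, a helicase subunit, was at least 3.96-fold higher, Rrm1 and Rrm2, the subunits of ribonucleotide reductase, at least 4.59-fold and 4.55-fold, Top2a, the topoisomerase that untangles sister chromatids, at least 4.29-fold, and Ccna2 (cyclin A2) at least 4.63-fold. Of the 41, 10 were not well above background in either tissue and were still called higher, by 0.85 for Foxm1, the transcription factor of mitosis genes, to 2.85 for the checkpoint kinase gene Bub1. Ccnd1 (cyclin D1) was the exception at -0.23 (95% confidence interval -0.46 to -0.01, adjusted p 0.063), with fetal control signals of 7.78, 7.60, 7.34, 7.22 and 7.40, none above background, and maternal ones of 7.64, 7.59, 7.67, 7.79 and 7.83. In whole liver, more dividing cells and more RNA per cell cannot be told apart. Erythroid markers were higher in fetal liver for 10 of 10 measured (median 3.09), granulocyte markers for 10 of 10 (median 2.50) and fetal hepatocyte markers for 4 of 4 (median 4.18). Their part in the difference was not tested.

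**Figure D1:**
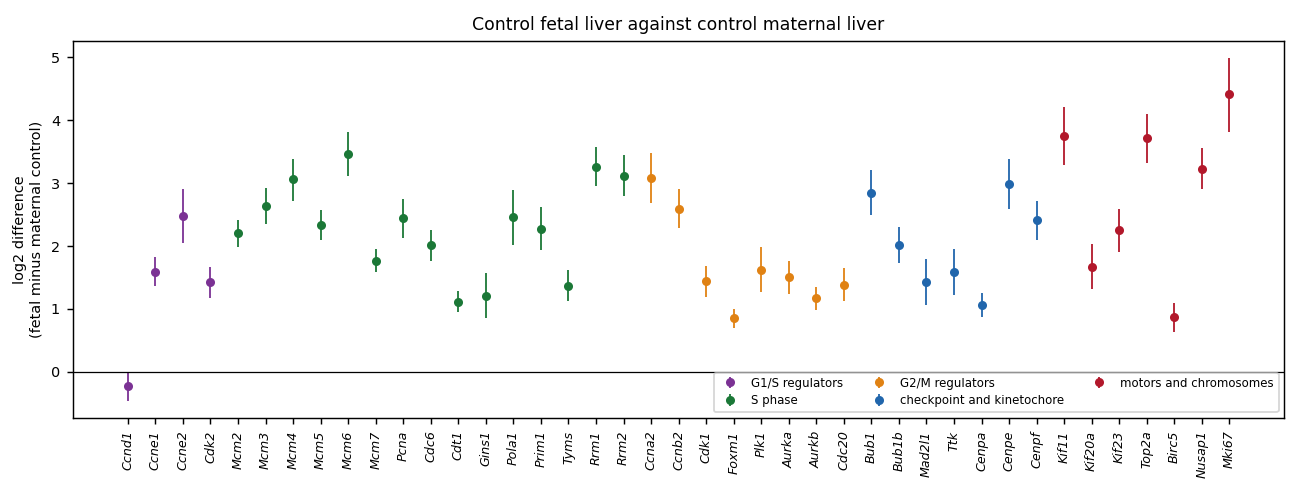
Difference of the mean log2 signal between fetal and maternal control livers for the 41 genes, with 95% confidence intervals, coloured by class (n = 5 arrays a group). All but Ccnd1 lie above 0, from 0.85 for Foxm1 to 4.41 for Mki67.

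In maternal liver, mitosis genes fell under the higher PFOA dose and under both GenX doses. Of the 22 mitosis genes, 20 fell in PFOA5, 17 in GenX2 and 19 in GenX10, and none rose. The S phase genes gave 4, 2 and 4 falls among 15. Over all 41 genes, 25 fell and 1 rose in PFOA5, where 9.05% of all genes tested were called lower and 10.8% higher. In GenX2, 20 fell and 0 rose (0.940% of all genes lower, 2.43% higher; the 0 is limma's count, and 29 of the 41 had an unadjusted p under 0.05 in either direction), and in GenX10, 24 fell and 0 rose (6.22% lower, 7.55% higher; 31 with an unadjusted p under 0.05 in either direction). The median change of the mitosis genes was -0.48, -0.58 and -0.44, and that of the S phase genes -0.18, -0.12 and -0.19, against -0.05, -0.03 and -0.05 for all genes. Every gene that fell except Plk1 and Mki67 was not well above background in all maternal groups, so these are differences among dim signals. The 3 exposures were compared with the same 5 control arrays. Those controls were uneven: the mean over the 22 mitosis genes was 5.93, 6.30, 6.42, 6.46 and 5.87, so replicates 1 and 5 lay below the other controls, while GenX2 lay between 5.53 and 5.66, PFOA5 between 5.54 and 5.93, and GenX10 between 5.58 and 5.93. Without control replicate 3 the number of genes called in GenX2 was 13.

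**Figure D2:**
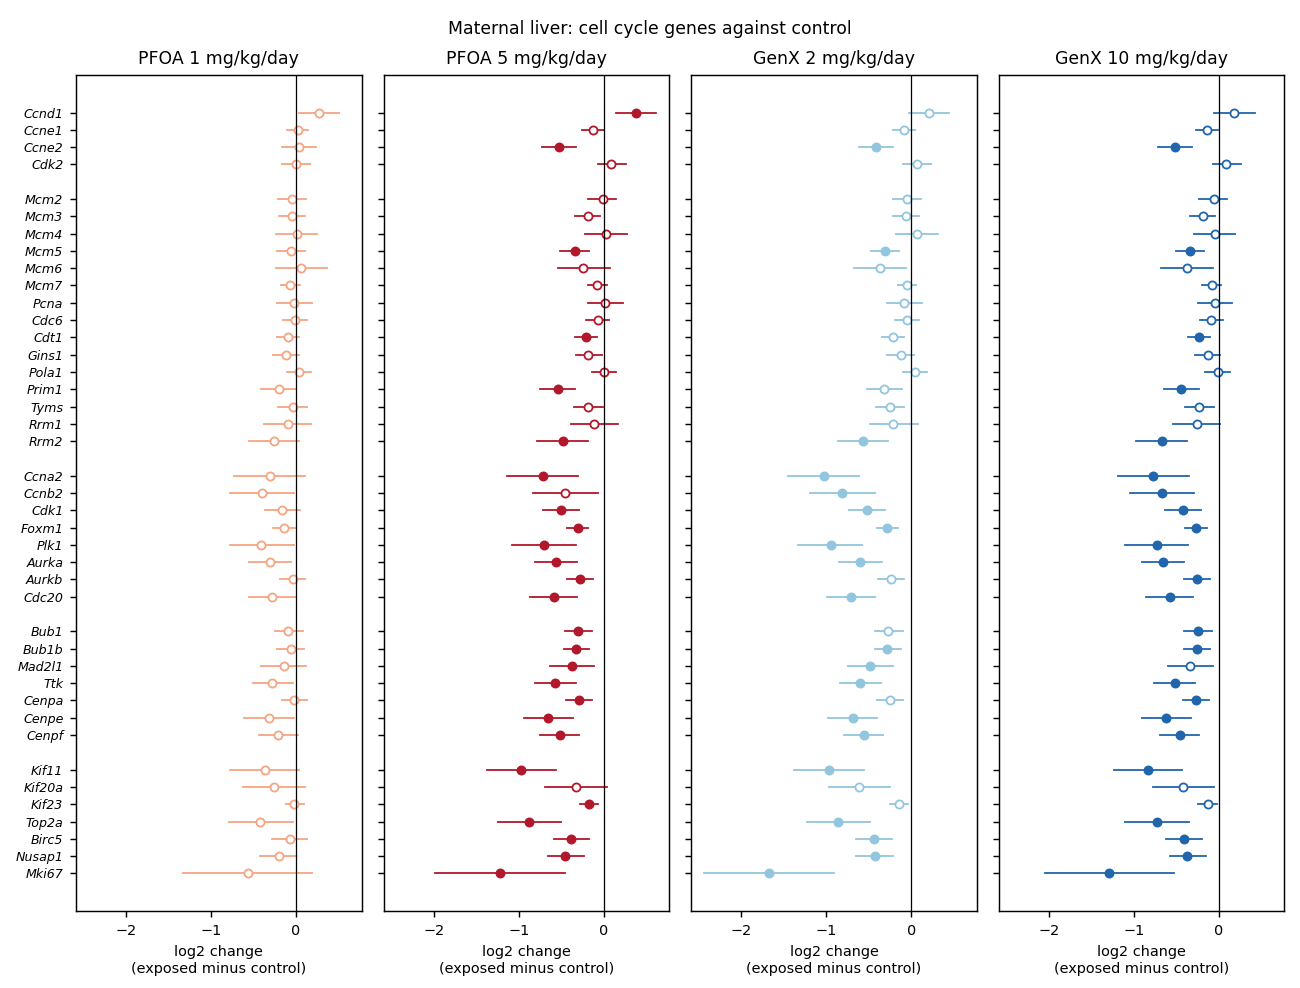
Change of the mean log2 signal against maternal controls for the 41 genes under each exposure, with 95% confidence intervals; filled points have an adjusted p under 0.05 (n = 5 arrays a group). Most filled points lie below 0 in PFOA5, GenX2 and GenX10, among mitosis genes, and PFOA1 has none.

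Among the G1 regulators, Ccne2 (cyclin E2, a partner of CDK2 at S phase entry) was the one gene that fell in all 3 of these groups. Its maternal signals were 5.45, 5.68, 5.96, 5.40 and 5.63 in controls and 5.16, 5.04, 5.15, 5.22 and 4.90 in PFOA5. Every PFOA5 array lay below every control, although all were under background, and the change was -0.53 (SE 0.10, adjusted p 3.3e-04). In GenX2 it was -0.41 (adjusted p 0.014; 0.059 without control replicate 3 and 0.074 when only these groups were fitted) and in GenX10 -0.52 (adjusted p 7.4e-04), again with no overlap. Ccnd1 (cyclin D1, which pairs with CDK4 and CDK6) went the other way in PFOA5, with signals of 8.21, 8.21, 7.86, 8.30 and 7.84 above all 5 controls. It rose by 0.38 (SE 0.12, adjusted p 0.023), or 1.3-fold, with 4 of 5 control arrays and all PFOA5 arrays above background. The call was lost when quantile normalization was repeated (0.29, adjusted p 0.062) and without control replicate 2 or PFOA5 replicate 1, 2 or 4 (0.054 to 0.072). In GenX2 and GenX10 its change was 0.21 (95% confidence interval -0.03 to 0.45) and 0.18 (-0.06 to 0.43), with groups that overlapped the controls. Ccne1 (cyclin E1) changed by -0.12, -0.08 and -0.14, and Cdk2, its kinase, by 0.09, 0.07 and 0.09, none of them called.

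Of the S phase genes, Mcm5, a helicase subunit, and Rrm2, the regulated subunit of ribonucleotide reductase, fell in all 3 groups. Rrm2 signals were 6.81, 6.51, 7.23, 6.57 and 6.27 in controls, 6.01, 6.47, 6.08, 6.25 and 6.17 in PFOA5, 6.11, 6.28, 6.03, 5.96 and 6.17 in GenX2, and 5.86, 5.89, 6.26, 5.86 and 6.18 in GenX10. Control replicate 3 was the highest, and the GenX10 group alone did not overlap the controls. The changes were -0.48 (adjusted p 0.02), -0.57 (0.026) and -0.67 (0.0027), and in GenX2 the call was lost without control replicate 1 or 3 or GenX2 replicate 1 or 3 (adjusted p 0.056 to 0.095) and when only these groups were fitted (0.075). Mcm5 signals were 6.64, 6.58, 6.48, 6.50 and 6.26 in controls, 6.09, 6.23, 6.17, 6.27 and 6.01 in PFOA5, 6.23, 6.14, 5.99, 6.36 and 6.20 in GenX2, and 5.97, 6.14, 6.26, 6.04 and 6.35 in GenX10. Control replicate 5 was the lowest control and lay within the exposed range. Mcm5 fell by 0.34, 0.31 and 0.34 (adjusted p 0.0049, 0.037 and 0.0078); in GenX2 the call was lost in 8 of the 10 fits that left out 1 array (adjusted p up to 0.11 without GenX2 replicate 3), all but those without control replicate 5 or GenX2 replicate 4. It was also lost in 4 of 8 other alternatives, among them repeated quantile normalization (0.065), median centring (0.074) and these groups fitted alone (0.1). Of these 8, leaving out the genes on shared probes repeats the main fit and could not lose the call.

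Prim1, the catalytic subunit of primase, fell by 0.54 in PFOA5 (adjusted p 3.4e-04) and by 0.44 in GenX10 (0.0048), and its GenX2 change of -0.32 was not called (0.083). Cdt1, which loads the helicase on origins, fell by 0.21 in PFOA5 (0.02; 0.053 to 0.056 without control replicate 3 or PFOA5 replicate 1 or 2, and 0.051 when arrays were centred on their median) and by 0.23 in GenX10 (0.015), with -0.21 in GenX2 (0.071). The other 11 S phase genes were not called in any of these groups. They were Mcm2, Mcm3, Mcm4, Mcm6, Mcm7, Pcna, Cdc6, Gins1, Pola1, Tyms and Rrm1. Among them Mcm2, another helicase subunit, had signals that were 7.04, 7.16, 7.15, 7.01 and 6.84 in controls and 6.89, 7.11, 7.01, 7.08 and 7.05 in PFOA5, 6.98, 6.99, 6.82, 7.21 and 6.97 in GenX2, and 6.85, 7.12, 7.03, 6.76 and 7.14 in GenX10. All 4 groups overlapped, and the 95% confidence intervals of the change were -0.18 to 0.15, -0.21 to 0.12 and -0.23 to 0.10. Pcna, the sliding clamp of DNA polymerases, changed by 0.02 (-0.18 to 0.23), -0.08 (-0.28 to 0.13) and -0.05 (-0.25 to 0.16), and Mcm6 by -0.24, -0.37 and -0.37 (adjusted p 0.26, 0.2 and 0.089). These genes were under background on every maternal array.

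Among the regulators of mitotic entry, 7 of 8 fell in PFOA5, 7 in GenX2 and 8 in GenX10. Plk1 was above background on 3 control arrays, and its control signals were 7.57, 7.88, 7.97, 8.12 and 7.13. Those of PFOA5 were 6.86, 7.32, 6.83, 7.17 and 7.0, those of GenX2 6.77, 6.84, 6.59, 6.86 and 6.85, and those of GenX10 7.14, 6.77, 6.90, 6.71 and 7.49. GenX2 lay wholly below the controls, whereas control replicate 5 lay within the PFOA5 range and GenX10 replicates 1 and 5 within the control range. Plk1 fell by 0.70 (SE 0.18, adjusted p 0.008; at least 1.16-fold lower), by 0.95 (SE 0.18, 0.0026; at least 1.17-fold lower) and by 0.73 (SE 0.18, 0.0088; no fold given, since 1 of 5 GenX10 arrays was above background).

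Cdc20 signals were 6.21, 6.52, 6.65, 6.60 and 5.92 in controls, 5.67, 6.01, 5.83, 5.85 and 5.59 in PFOA5, 5.58, 5.61, 5.74, 5.81 and 5.60 in GenX2, and 5.76, 5.72, 5.68, 5.72 and 6.12 in GenX10. Control replicate 5 was again the lowest control, and it was below the highest PFOA5 and GenX10 arrays. Cdc20 fell by 0.59, 0.71 and 0.58 (SE 0.14 each; adjusted p 0.0033, 0.0026 and 0.0058). Ccna2, the cyclin of late S phase and G2, fell by 0.72, 1.03 and 0.77, from control signals of 6.36, 6.87, 6.96, 7.29 and 6.25 to 6.01, 6.47, 5.53, 6.20 and 5.93 in PFOA5, 5.67, 5.72, 5.66, 5.63 and 5.92 in GenX2, and 6.14, 5.74, 5.71, 5.88 and 6.42 in GenX10. Only the GenX2 values of Ccna2 were clear of the controls. Cdk1, the mitotic cyclin-dependent kinase, fell by 0.50, 0.52 and 0.42 (adjusted p 1.0e-03, 0.0035 and 0.0075), with controls of 6.37, 6.69, 6.84, 6.90 and 6.42 all above the highest PFOA5 array (6.33) and the highest GenX2 array (6.26). Aurka, a kinase of spindle poles, fell by 0.56, 0.60 and 0.66, and Foxm1 by 0.30, 0.28 and 0.27. Ccnb2 (cyclin B2) was at -0.45 in PFOA5 (adjusted p 0.087) and fell by 0.81 and 0.67 under GenX2 and GenX10. Aurkb, the kinase of the chromosomal passenger complex, fell by 0.28 and 0.26 in PFOA5 and GenX10 and was at -0.24 in GenX2 (0.082).

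All 7 checkpoint and kinetochore genes fell in PFOA5, 5 of 7 in GenX2 and 6 of 7 in GenX10. Cenpe, a kinesin that carries chromosomes to the spindle equator, fell by 0.65, 0.69 and 0.62 (adjusted p 0.0017, 0.0044 and 0.0043). Ttk, the kinase that starts checkpoint signalling, fell by 0.57, 0.60 and 0.52, and its exposed arrays lay below every control in all 3 groups. Cenpf, a protein of the outer kinetochore, fell by 0.52, 0.56 and 0.46, and Bub1b, which encodes the checkpoint protein BubR1, by 0.32, 0.28 and 0.26. Cenpa, the histone H3 variant of centromeres, fell by 0.29 in PFOA5 and by 0.27 in GenX10 and was at -0.25 in GenX2 (adjusted p 0.058). Bub1 was likewise uncalled in GenX2 (-0.27, 0.065), and Mad2l1, the checkpoint protein MAD2, in GenX10 (-0.34, 0.077).

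Of the genes of motors, chromosomes and cytokinesis, 6 of 7 fell in PFOA5 and 5 in each GenX group. Mki67 was above background on 2 control arrays, with control signals of 6.94, 7.60, 7.79, 7.55 and 6.45. The PFOA5 values were 5.77, 7.09, 5.23, 6.45 and 5.67, the GenX2 values 5.68, 5.78, 5.18, 5.48 and 5.83, and the GenX10 values 6.27, 5.53, 5.42, 5.58 and 7.07. All arrays of these 3 groups were under background, GenX2 lay wholly below the controls, and 1 array each of PFOA5 and GenX10 lay above 2 of the controls. The changes were -1.22 (95% confidence interval -1.99 to -0.46, adjusted p 0.021), -1.67 (-2.44 to -0.91, 0.0087) and -1.29 (-2.05 to -0.53, 0.022), with no fold given because the exposed arrays' background lay above the control mean. In PFOA5 the call was lost without control replicate 2 or 3 or PFOA5 replicate 1, 3 or 5 (adjusted p 0.051 to 0.061). In GenX10 it was lost without control replicate 2 or 3 or GenX10 replicate 3 (0.051 to 0.063), and in GenX2 it held in all 10 such fits.

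Kif11 signals were 4.92, 6.00, 6.09, 6.04 and 5.36 in controls, 4.76, 5.01, 4.48, 4.80 and 4.50 in PFOA5, 4.72, 4.74, 4.73, 4.63 and 4.75 in GenX2, and 4.97, 4.63, 4.56, 4.83 and 5.23 in GenX10. Control replicate 1 lay near the exposed arrays, and the others were higher. Kif11 fell by 0.97, 0.97 and 0.84 (SE 0.20 each; adjusted p 0.001, 0.0046 and 0.006). Top2a signals were 5.64, 6.14, 6.41, 6.29 and 5.56 in controls, 5.11, 5.38, 4.94, 5.26 and 4.97 in PFOA5, 5.17, 5.15, 5.02, 5.07 and 5.33 in GenX2, and 5.40, 5.00, 5.13, 5.14 and 5.72 in GenX10. Only 1 exposed array, GenX10 replicate 5, reached the controls, and Top2a fell by 0.88, 0.86 and 0.73. Nusap1, a protein that bundles spindle microtubules, fell by 0.45, 0.43 and 0.37, and Birc5 (survivin, of the chromosomal passenger complex) by 0.38, 0.44 and 0.41. Kif20a, a kinesin of cytokinesis, was called in none of these groups (-0.32, -0.61 and -0.42, adjusted p 0.19, 0.055 and 0.1). Kif23, another such kinesin, fell by 0.17 in PFOA5 (0.021), and its changes of -0.14 in GenX2 (0.15) and -0.13 in GenX10 (0.095) were not called.

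**Figure D3:**
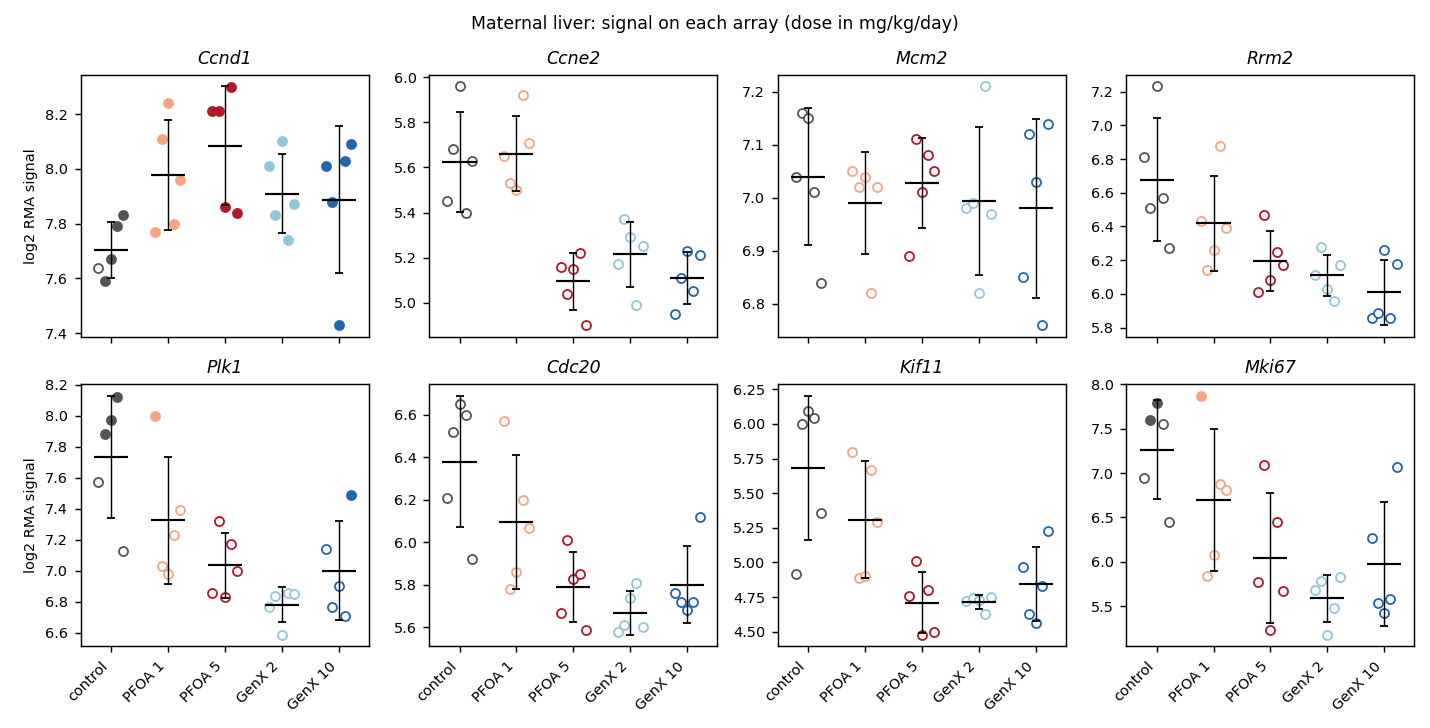
Log2 signal of Ccnd1, Ccne2, Mcm2, Rrm2, Plk1, Cdc20, Kif11 and Mki67 on each maternal array by group, with the group mean (bar) and SD (error bar); filled points lie above the 95th percentile of that array's negative controls and open points do not (n = 5 arrays a group). Ccnd1 is filled on 4 of 5 control arrays, and Mki67 is open on all PFOA5, GenX2 and GenX10 arrays.

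At the lower PFOA dose no gene of the 41 was called by limma, where 0.0325% of all genes tested were called in either direction, and 9 of the 41 had an unadjusted p under 0.05. Of the 41 changes 35 were negative, and for the 22 mitosis genes all were. The mitosis genes rose and fell together on the arrays, so these signs are not separate observations. Their array means were 5.66 to 6.35 in PFOA1 and 5.87 to 6.46 in controls. Mki67 signals in PFOA1 were 7.87, 5.84, 6.08, 6.88 and 6.81, with replicate 1 above every control, and the change was -0.57 (95% confidence interval -1.33 to 0.19). Plk1 in PFOA1 was 8.0, 7.03, 6.98, 7.23 and 7.39, where again replicate 1 lay among the highest controls, and the change was -0.41. Ccnd1 in PFOA1 was 7.77, 8.11, 8.24, 7.80 and 7.96, a change of 0.27 (0.03 to 0.51, adjusted p 0.95).

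The doses of each compound were also set against each other. In maternal liver, 10 of the 41 genes were lower in PFOA5 than in PFOA1 and none higher, where 8.52% of all genes tested were called lower and 10.2% higher. Ccne2 had the smallest adjusted p: its PFOA1 signals of 5.65, 5.53, 5.50, 5.92 and 5.71 lay above every PFOA5 array, a difference of -0.57 (SE 0.10, 2.3e-04). The others were Mcm5 (-0.28), Prim1 (-0.34), Cdk1 (-0.34), Aurkb (-0.24), Bub1b (-0.26), Cenpa (-0.27), Kif11 (-0.60), Kif23 (-0.16) and Birc5 (-0.30). Mki67 differed by -0.65 (95% confidence interval -1.42 to 0.11) and Plk1 by -0.29 (-0.67 to 0.08), neither called. The count depended on the processing: it was 1 (Ccne2) when quantile normalization was repeated, 2 (Ccne2 and Bub1b) when arrays were centred on their median, and 3 to 16 when single arrays were left out (3 without PFOA1 replicate 1 or 4, 4 without PFOA5 replicate 1, 5 without PFOA5 replicate 5, 6 without PFOA5 replicate 4 and 16 without PFOA1 replicate 2). Between GenX10 and GenX2 in maternal liver, limma called 0 of the 41 (0.237% of all genes in either direction), and 0 had an unadjusted p under 0.05. The interval for Mki67 was -0.38 to 1.15 around 0.38 and that for Plk1 -0.15 to 0.60 around 0.22, so differences of this size remain within the error. In fetal liver, limma called 0 of the 41 between the doses of either compound (0.0488% of all genes for PFOA and 0 for GenX), with 0 at an unadjusted p under 0.05.

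Fetal liver gave 1 call among the 41 genes over the 4 exposures. In PFOA1 and in PFOA5 limma called 0 (0.843% and 2.34% of all genes tested higher, 0.111% and 1.05% lower), 1 gene in each had an unadjusted p under 0.05, and all 41 changes were negative, with medians of -0.16 and -0.14. In GenX2 limma called 0 (3.90% higher, 2.83% lower), 4 had an unadjusted p under 0.05, and 40 of 41 changes were positive, with a median of 0.17. In GenX10, 1 gene was called lower (4.85% of all genes lower, 4.42% higher), 3 had an unadjusted p under 0.05, and 37 of 41 changes were positive, with a median of 0.16. The 4 comparisons share the same 5 control arrays, so their values are not independent of each other. The 41 genes also rose and fell together, with fetal array means from 7.81 to 9.10, so their signs are not separate observations. The share of all genes with each sign is not given here.

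The fetal call was Ccnd1, whose signals in GenX10 were 7.02, 6.99, 7.13 and 7.22 against 7.78, 7.60, 7.34, 7.22 and 7.40 in controls. The highest GenX10 array equalled the lowest control, none of these arrays was above background, and the change was -0.38 (SE 0.10, adjusted p 0.024). The adjusted p was 0.052 to 0.084 without control replicate 1 or 2 or GenX10 replicate 1 or 2, and 0.094 when arrays were centred on their median. Its changes in PFOA1, PFOA5 and GenX2 were -0.23, -0.28 and -0.25, not called (adjusted p 0.54, 0.12 and 0.15).

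Fetal Plk1 signals in GenX2 were 9.71, 9.92, 9.50, 10.29 and 9.47, against control values of 9.21 to 9.53. Replicates 3 and 5 lay within the control range and replicate 4 was the highest, and the change was 0.42 (95% confidence interval 0.10 to 0.74, adjusted p 0.12). Mcm7, another helicase subunit, was at 9.45, 9.45, 9.39, 9.89 and 9.19 in GenX2 and 9.04, 9.41, 9.21, 9.08 and 9.0 in controls, with a change of 0.33 (0.09 to 0.57, adjusted p 0.1). It was called without GenX2 replicate 5, 1 of the arrays with contradictory labels. Mki67 was at 11.90, 11.80, 11.73, 12.22 and 11.52 in GenX2, a change of 0.16 (-0.12 to 0.45), and at 11.80, 11.98, 11.60 and 11.85 in GenX10, a change of 0.14 (-0.17 to 0.44). In fetal PFOA5 its 6 values ran from 11.35 to 11.80 with a median of 11.53, a change of -0.10 (-0.38 to 0.17), and in PFOA1 they were 11.92, 11.41, 11.74, 11.64 and 11.16, a change of -0.10 (-0.38 to 0.19). The fetal changes of Mcm2 were -0.08, -0.07, 0.25 and 0.16 in PFOA1, PFOA5, GenX2 and GenX10, and those of Pcna -0.12, -0.15, 0.17 and 0.16, with all groups overlapping the controls.

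**Figure D4:**
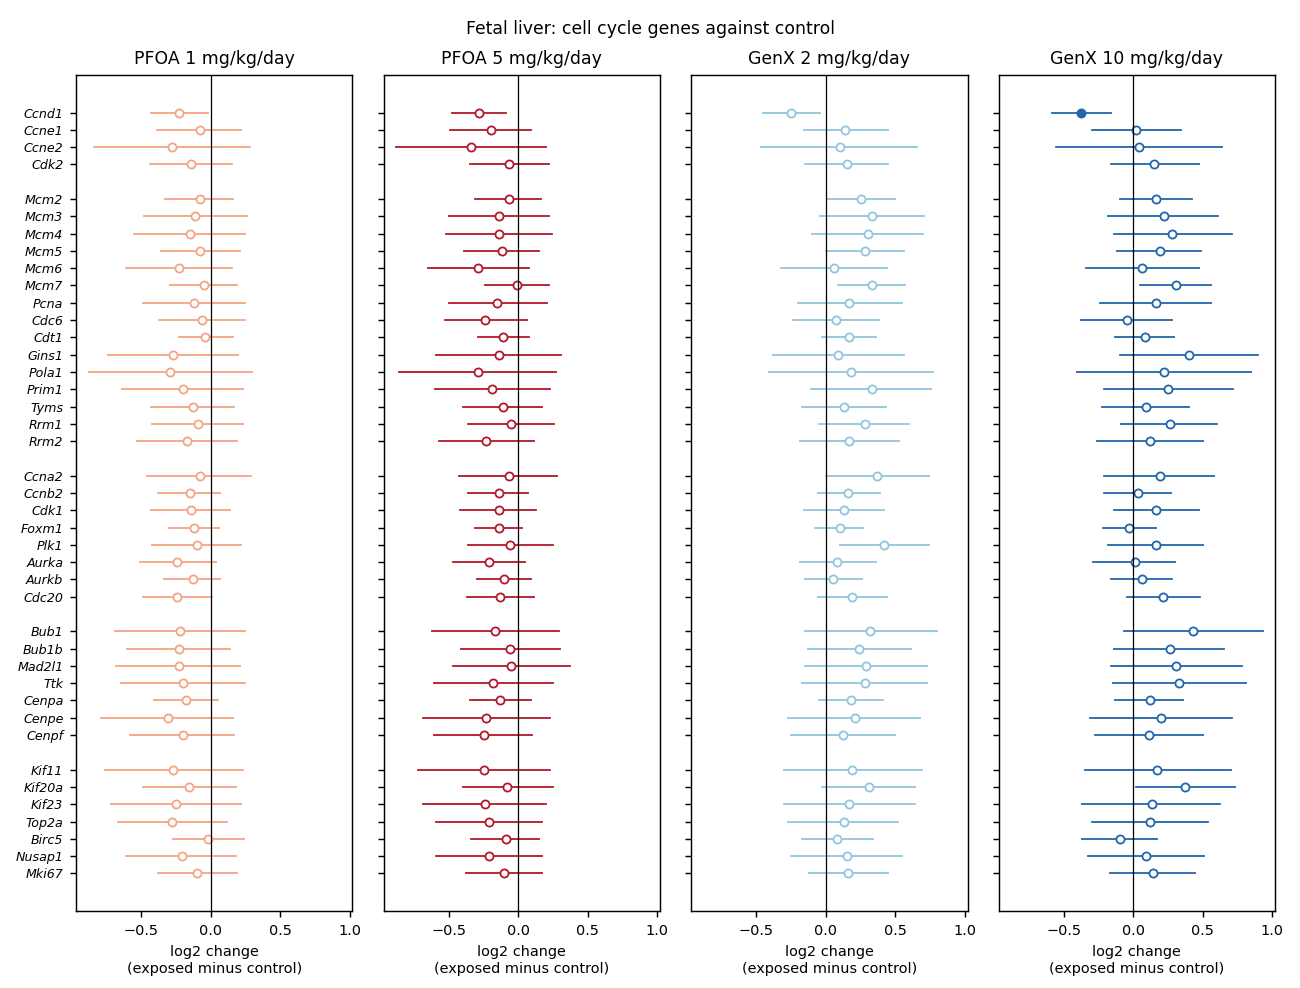
Change of the mean log2 signal against fetal controls for the 41 genes under each exposure, with 95% confidence intervals; filled points have an adjusted p under 0.05 (n = 5 arrays a group, 6 in PFOA5 and 4 in GenX10). The medians are -0.16, -0.14, 0.17 and 0.16, and the filled point is Ccnd1 in GenX10.

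Erythroid markers, 10 measured, moved with these genes from array to array in fetal liver. The mean over the 41 genes was lowest in PFOA1 replicate 5 (7.81) and PFOA5 replicate 3 (7.90), and these arrays also had the lowest erythroid means (9.16 and 9.18). Both were highest in GenX2 replicate 4 (9.10 and 10.09). The erythroid mean was 9.38 to 9.70 in controls, 9.16 to 9.76 in PFOA1, 9.18 to 9.57 in PFOA5, 9.44 to 10.09 in GenX2 and 9.49 to 9.75 in GenX10, and the median change of the markers was -0.05, -0.16, 0.18 and 0.10. Their summed linear signal, in units of 1000, ran from 10.4 to 13.3 in controls, 8.85 to 13.6 in PFOA1, 9.68 to 12.1 in PFOA5, 11.4 to 17 in GenX2 and 11.6 to 13.4 in GenX10. Of the 10, 1 was called, Slc4a1 (the anion exchanger of red cells) with a rise in GenX2, and Gata1, the erythroid transcription factor, was not well above background in any fetal group. Markers of other cells were called as well. The macrophage marker Csf1r changed by -0.28 in PFOA5, -0.27 in GenX2 and -0.31 in GenX10. The hepatocyte markers Cps1 and Apoa1 changed by -1.26 and -0.26 in GenX2, and Apoa1 by -0.31 in GenX10. Of the stellate markers, Des changed by 0.88 in PFOA5 and 0.72 in GenX2, and Lrat by -0.48 in GenX2. C1qa, Pax5 and Runx1 were lower in GenX10, all under background. The part of erythroid and other cells in the fetal values was not tested.

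**Figure D5:**
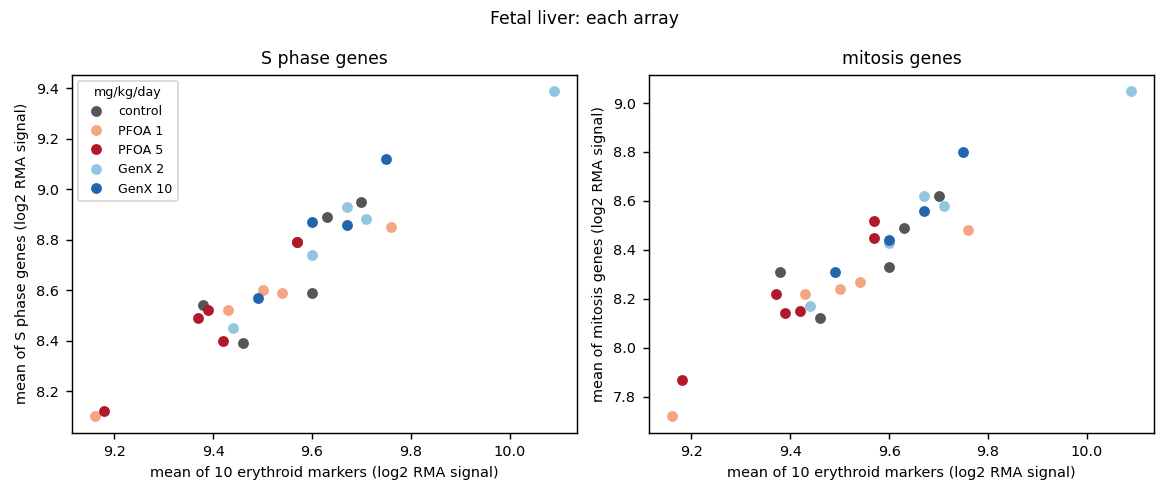
Mean log2 signal of the 15 S phase genes and of the 22 mitosis genes on each of the 25 fetal arrays against the mean of 10 erythroid markers on the same array, coloured by group. PFOA1 replicate 5 and PFOA5 replicate 3 lie at the lower left (erythroid means 9.16 and 9.18) and GenX2 replicate 4 at the upper right (10.09).

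Whether an exposure changed these genes differently in fetal and maternal liver was tested as the difference of its effects. For GenX2, 6 of the 41 genes had a higher effect in fetal liver and none a lower one, where 0.612% of all genes tested had a higher and 0.667% a lower one. The difference was 1.84 for Mki67 (95% confidence interval 1.01 to 2.66, adjusted p 0.01), 1.40 for Ccna2 (0.0032), 1.37 for Plk1 (6.4e-04), 0.97 for Ccnb2 (0.012), 0.92 for Kif20a (0.048) and 0.90 for Cdc20 (0.0049). All 6 are mitosis genes, and in each the maternal change was negative and the fetal change positive, with no fetal change called. Ccna2, Ccnb2, Cdc20 and Kif20a were under background on every maternal array, and Plk1 and Mki67 on every maternal GenX2 array. The maternal part of each difference therefore rests on dim signals, whose changes are compressed. The count was 15 without fetal GenX2 replicate 5, 14 without both arrays of contradictory labels, 12 without maternal control replicate 5 or fetal control replicate 2 and 10 without maternal control replicate 1. Kif20a lost its call in 15 of 20 fits that left out 1 array and in 5 of 12 other alternatives.

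For GenX10, Cdc20 (difference 0.79, adjusted p 0.014) and Plk1 (0.90, 0.0499) had a higher effect in fetal liver, where 0.735% of all genes did and 1.30% had a lower one. This count was 7 without maternal control replicate 5, 5 without maternal control replicate 1, 4 without maternal GenX10 replicate 5 and 0 without fetal GenX10 replicate 2. It was 1 without maternal control replicate 2, 3 or 4, maternal GenX10 replicate 1, 2 or 4, fetal control replicate 1 or 5 or fetal GenX10 replicate 4, and the call of Plk1 was lost in 15 of 19 fits that left out 1 array and in 8 of 12 other alternatives. Maternal signals of Cdc20 were under background on every array, and those of Plk1 in GenX10 on most arrays. For PFOA5, Ccnd1 was the 1 gene of the 41 with a lower effect in fetal liver (-0.67, 95% confidence interval -0.97 to -0.36, adjusted p 0.0048; 2.71% of all genes lower, 1.77% higher), and its maternal change was 0.38 and its fetal change -0.28. Its signal was under background on every fetal array. Without maternal control replicate 5, Plk1 and Mki67 were called as well, with higher effects in fetal liver, and without maternal PFOA5 replicate 2 the count was 2. For PFOA1 limma called 0 of the 41 (0.179% of all genes in either direction), and 1 had an unadjusted p under 0.05.

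Further genes of the cell cycle, not among the 41, were also counted in maternal liver. Of 50 other mitosis genes, 33 fell and 1 rose in PFOA5, 27 fell and 0 rose in GenX2 and 29 fell and 1 rose in GenX10, with medians of -0.26, -0.28 and -0.26. Beside these counts, 9.05%, 0.940% and 6.22% of all genes tested were called lower and 10.8%, 2.43% and 7.55% higher. In every maternal group 46 to 48 of the 50 were not well above background. Among them Ncaph, a condensin subunit, fell by 0.57, 0.50 and 0.49, and Kif22, a chromosome-binding kinesin, by 0.41, 0.43 and 0.44. Spc25, a subunit of the kinetochore's NDC80 complex, was the gene that rose, by 0.59 in PFOA5 and 0.68 in GenX10, and it was under background in those groups. Of 31 other replication genes, 5, 1 and 6 fell and 1, 0 and 1 rose, with medians of -0.09, -0.05 and -0.11, and 30 of the 31 were not well above background in each maternal group. Of 18 E2F, pocket protein and G1 kinase genes, 5, 1 and 7 rose and 3, 1 and 1 fell, and 12 to 14 were not well above background. Among these Myc, a transcription factor of growth, rose by 0.96 in PFOA5 and 0.49 in GenX10, E2f8, a repressor of the E2F family, by 0.81, 0.71 and 0.90, and Cdk4, the partner of cyclin D1, by 0.55 in PFOA5 and 0.34 in GenX10. The pocket protein gene Rbl1 was called lower, with changes of -0.33 in GenX2 and -0.47 in GenX10. It was under background in controls and in both groups. Of 12 CDK inhibitor and p53 target genes, 5 or 6 were not well above background in each maternal group. In PFOA5 Ccng1 (cyclin G1) rose by 0.91 and Mdm2, the ligase of p53, by 0.42, the latter from controls under background. The inhibitor gene Cdkn1b (p27) fell by 0.39 in PFOA5 and by 0.41 in GenX10, and it was under background in controls and in both groups.

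In fetal liver, Cdk4 rose by 0.29 in PFOA5 (adjusted p 0.0041), 0.43 in GenX2 (6.9e-05) and 0.49 in GenX10 (2.2e-05), while the CDK inhibitor gene Cdkn1c (p57) fell by 0.81, 0.55 and 0.43 (adjusted p 5.3e-05, 0.0059 and 0.036). Spc25 rose by 0.69 in GenX2 and 0.76 in GenX10, from controls under background, and Mybl2 (B-Myb) by 0.35 in GenX2. No other gene of the 50 mitosis and 31 replication genes was called in a fetal exposure.

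Markers of other cells were set beside the maternal changes. Erythroid markers were not well above background for 8 of 10 in every maternal group, and their mean was 6.51 to 6.70 in controls and 6.39 to 6.74 in exposed livers, with 1 of 10 called, Tal1, lower in PFOA5 and GenX10. Macrophage markers were called higher for 4 of 9 in PFOA5, 0 in GenX2 and 2 in GenX10, where 10.8%, 2.43% and 7.55% of all genes were, with array means of 6.90 to 7.72 in controls, 7.09 to 8.03 in PFOA5, 7.05 to 7.57 in GenX2 and 7.39 to 8.03 in GenX10. Of 4 fetal hepatocyte markers, Igf2 fell by 0.87 in PFOA5 and by 0.79 in GenX10, and Afp by 0.81 in GenX2 and by 0.71 in GenX10. Their array mean was 6.78 to 7.10 in controls, 6.47 to 6.86 in PFOA5, 6.46 to 6.87 in GenX2 and 6.47 to 6.75 in GenX10, and 2 or 3 of the 4 were not well above background in each group. Granulocyte markers, 9 or 10 of 10 not well above background, included a fall of S100a8 by 0.97 in GenX2 and, in PFOA5, a rise of Lcn2 by 0.60 and a fall of Ltf by 0.19. Their array mean was 5.95 to 6.15 in controls, 5.79 to 6.40 in PFOA5, 5.66 to 5.92 in GenX2 and 5.77 to 6.12 in GenX10. Markers of B cells, of T and NK cells, of blood progenitors and of megakaryocytes were not well above background in any maternal group. In PFOA5 the B cell marker Cd79b fell by 0.27, the progenitor marker Kit by 0.25 and the NK marker Klrb1c by 0.23. The endothelial marker Stab2 fell by 0.46 and the stellate marker Des by 0.27 in PFOA5, and in GenX10 the stellate marker Lrat rose by 0.79 and the bile duct marker Sox9 by 0.32. Hepatocyte markers had means of 11.65 to 11.74 in controls and 11.46 to 11.95 in exposed livers, and 2 of 8 were called higher in PFOA5 and 1 in each GenX group. Ttr rose by 0.18, 0.27 and 0.25 in PFOA5, GenX2 and GenX10, and Arg1 by 0.30 in PFOA5. The part of these cells in the maternal changes was not tested.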

How the data were processed

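The deposited values are log2 signals that the authors made with RMA, with the mouse build mm10 named, per the submitters' processing notes; versions and whether all 50 arrays were processed together are not given in the sources used here. Because RMA includes quantile normalization, a shift of most genes one way would be partly removed. As far as the labels say, each array holds 1 animal's liver, and p-values measure the spread between these animals. Precision is limited by the 4 to 6 arrays in each group.

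Probes with 1 gene numbered 31207 and probes of several genes 1543; the latter were left out except for 3 listed genes (Ccnd1, Mcm7, Foxm1). For 364 genes with several probes, none of them among the 41, the brightest was used, which left 30738 genes. Background was the 95th percentile of 5222 negative controls on each array.

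Group means were compared by limma's moderated test (version 3.58.1, in R 4.3.3), two-sided, with all groups of a tissue in 1 fit and all 10 groups in comparisons between tissues, and a call needed a p under 0.05 after Benjamini-Hochberg adjustment over all genes. Python 3.11.15 with numpy 2.4.6, pandas 2.3.3 and matplotlib 3.10.9 and the R package data.table (version 1.17.8) served for reading and plotting. On data simulated for 30738 genes, 78% (maternal GenX2), 82% (fetal GenX10) and 89% (fetal PFOA5) of genes changed by 0.5 were called, and 98%, 99% and 99% of those changed by 1. The changed genes were drawn at random from all genes and given independent errors. The listed genes rose and fell together, so these rates do not give the power for them.

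The genes and lists were chosen with earlier results of these data known, although the further cell cycle genes were not chosen by value. Text names every listed gene by class, values by array or range for a fixed set, the called genes of smallest adjusted p, and up to 3 called genes of each other list. Ccne2, Ccna2 and Kif11 by array, and other genes outside this rule, were chosen after their values were seen. Alternatives were an intensity trend, dim genes left out, median centring, repeated quantile normalization, array weights, averaged probes, compared groups only, a replicate block, arrays left out or regrouped, and, added after seeing the data, the 3 genes on shared probes left out.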

Additional observations from a re-analysis of the deposited data

Results flagged for a closer look

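Single arrays stood apart from the rest of their group in 5 of 220 groups of values examined, and chance flags about 1 in 20 groups. Mcm2 was 6.82 on maternal PFOA1 replicate 4, where the others were 7.02 to 7.05. On maternal GenX10 replicate 5, Cdk1 was 6.40 (others 6.14 to 6.20) and Cdc20 was 6.12 (others 5.68 to 5.76). Kif11 was 4.63 on maternal GenX2 replicate 4 (others 4.72 to 4.75). Ccna2 was 9.14 on fetal PFOA1 replicate 5 (others 9.85 to 9.90).

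The effect of an exposure differed between fetal and maternal liver, by limma's test of the difference, for 9 pairs of gene and exposure. For GenX2 the difference, fetal minus maternal, was 1.84 for Mki67 (adjusted p 0.01), 1.40 for Ccna2 (0.0032), 1.37 for Plk1 (6.4e-04), 0.97 for Ccnb2 (0.012), 0.92 for Kif20a (0.048) and 0.90 for Cdc20 (0.0049). For GenX10 it was 0.90 for Plk1 (0.0499) and 0.79 for Cdc20 (0.014). For PFOA5 it was -0.67 for Ccnd1 (0.0048), whose probe is shared with Mir3962. Ccna2, Ccnb2, Cdc20 and Kif20a were under background on every maternal array, Plk1 and Mki67 on every maternal GenX2 array, and Ccnd1 on every fetal array.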

How the results depend on the processing

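Leaving out dim genes kept 2 of the 41 in maternal comparisons and left 2 calls in PFOA5 (Ccnd1, Plk1), 1 in GenX2 and 1 in GenX10 (Plk1), and 0 between PFOA doses; it gave 1 in fetal GenX2 (Mcm7) and 0 in fetal GenX10, and 11 and 8 for the difference of effects between tissues for GenX2 and GenX10. In the maternal comparisons Plk1 passed the filter on dim genes through control, PFOA1 and GenX10 arrays. It was above background on no PFOA5 or GenX2 array, so its remaining calls are no separate support for its falls. For the differences of effects between tissues, the filter took all 50 arrays together, so a gene could pass through fetal arrays alone. Ccna2, Ccnb2, Cdc20 and Kif20a were under background on every maternal array. The counts of 11 and 8 are therefore no separate support for those differences. Median centring gave 0 in fetal GenX10 and 2 between maternal PFOA doses, and repeated quantile normalization 1 there. Fits of the compared groups alone gave 0 in fetal GenX10 and 5 for the GenX10 difference of effects. That difference gave 1 (Cdc20) with an intensity trend, repeated quantile normalization, median centring, averaged probes, the replicate block, or without the arrays of contradictory labels or of low Xist, and 11 with array weights. The GenX2 difference gave 12 with array weights and 14 without the arrays of contradictory labels. Without the 3 genes on shared probes, fetal GenX10 and the PFOA5 difference gave 0. The causes were not tested beyond the fewer genes in the first and last settings.

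With 1 array left out at a time, calls ran from 21 to 30 in maternal PFOA5, 13 to 25 in GenX2, 18 to 27 in GenX10, 3 to 16 between maternal PFOA doses, 40 to 41 between tissues, and 0 to 1 in fetal GenX2 and in fetal GenX10. They ran from 1 to 3 for the PFOA5 difference of effects (3 without maternal control replicate 5, where 2 of the 3 were higher in fetal liver), 5 to 15 for GenX2 and 0 to 7 for GenX10. They were 0 in maternal and fetal PFOA1, fetal PFOA5, the other dose comparisons and the PFOA1 difference. Of the alternatives for single named genes, 1397 kept the call and direction, 143 lost the call and 0 reversed. These genes were taken for small adjusted p values in the same data, so this tally is no separate support for the calls. It also counts the setting without the genes on shared probes, which repeats the main fit and could not lose a call. Losses were frequent for some named genes: Kif11 between maternal PFOA doses lost its call in 7 of 10 fits that left out 1 array.

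The labels do not say what a replicate number marks. The correlation of same-numbered arrays' deviations ran from -0.25 to 0.24 among maternal, from -0.54 to 0.59 among fetal and from -0.33 to 0.18 between maternal and fetal arrays of the same exposure. For differently numbered arrays it ran from -0.48 to 0.49, -0.57 to 0.64 and -0.33 to 0.33. The correlation that true pairs would have is not known, so these values cannot show whether the numbers mark pairs. With the replicate number as a block, Mcm5 in maternal GenX2 had an adjusted p of 0.058, and calls were 25, 17 and 23 in maternal PFOA5, GenX2 and GenX10, 9 between maternal PFOA doses, 1 in fetal GenX10, 40 between tissues, and 1, 10 and 1 for the PFOA5, GenX2 and GenX10 differences of effects.

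Signal over background limits the maternal results, since 38 of the 41 genes were under background in controls. Standard errors of the fetal changes ran from 0.08 to 0.30.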
